A study of Mus musculus with 17 samples.

Results

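The miR-302/miR-367 cluster is a run of 5 microRNA (miRNA) hairpins that lie next to each other on mouse chromosome 3. It was followed through the differentiation of embryonic stem cells (ESCs) in a table of mature miRNAs from small RNA sequencing. Members were all rows named for miR-302a, miR-302b, miR-302c, miR-302d or miR-367, either arm, which gave 8 of 1033 rows. These were mmu-miR-302a-3p, mmu-miR-302b-3p, mmu-miR-302c-3p, mmu-miR-302d-3p and mmu-miR-367-3p, and the 5p arms mmu-miR-302a-5p, mmu-miR-302c-5p and mmu-miR-302d-5p; the species prefix is left out from here on. The 5p arms of miR-302b and miR-367 were not analysed here.

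B8 and D3 are mouse ESC lines, pluripotent cells taken from early embryos. Day 0 samples were undifferentiated cells grown without feeder cells in the presence of LIF, the cytokine that holds mouse ESCs in the pluripotent state. On day 7 they were embryoid bodies, cell aggregates raised by the hanging drop method, and on day 21 outgrowths of embryoid bodies; all differentiating cultures had medium without LIF but with retinoic acid, insulin, transferrin and selenium (ITS), and N2 supplement. The 14 libraries analysed were 3 each of B8 on day 0, B8 on day 7, D3 on day 0 and D3 on day 21, and 2 of D3 on day 7 (replicates 2 and 3). The 3 samples of B8 on day 21 were not analysed here, so a value for day 21 exists for 1 line. The labels do not say whether replicates were separate cultures, so the spread behind each p-value is that between samples and may be technical.

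A miRNA gene is transcribed as a long precursor, cut to a hairpin and then to a short duplex, of which 1 strand is loaded into an Argonaute protein and silences messenger RNAs that match its seed, bases 2 to 8. The hairpins of this cluster are made from a shared precursor transcript, and pluripotency factors such as Oct4 and Sox2 are known to bind its promoter. In mouse ESCs its miR-302 members and the miR-290 cluster are known for the same seed and for promoting the rapid ESC cell cycle through inhibitors of the G1 to S transition. The miR-290 cluster is the dominant one of naive ESCs, and miR-302 is known to be higher in the later, primed epiblast.

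Sequences are shown because the seed decides which other rows of the table can be compared with the cluster. RefSeq (build GRCm38.p6) held 7 of the 8 members, and 873 of the 1033 rows of the table. The member without a sequence there was miR-302a-3p, so its seed was not compared. They are written 5′ to 3′ with the seed in capitals, in the order of the hairpins and with the 3p arms first.
miR-302b-3p: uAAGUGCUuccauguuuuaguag
miR-302c-3p: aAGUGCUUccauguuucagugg
miR-302d-3p: uAAGUGCUuccauguuugagugu
miR-367-3p: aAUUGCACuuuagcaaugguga
miR-302c-5p: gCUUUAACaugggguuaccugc
miR-302a-5p: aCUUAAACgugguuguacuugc
miR-302d-5p: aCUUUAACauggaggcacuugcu

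The 3p arms of miR-302b and miR-302d have the same seed, AAGUGCU. miR-302c-3p starts 1 base later in the shared run, so bases 2 to 8 read AGUGCUU. All 3 contain the 16-base run AAGUGCUUCCAUGUUU and are identical at 20 of 23 positions (miR-302b against miR-302d) or at 20 of 22 once shifted by 1 base (miR-302c against each of the others). Reads from them are therefore easily confused, and rules for reads that match several miRNAs are not given in the sources used here, so the split between members is uncertain. The 5p arms are less alike, with 15 to 17 of 22 positions identical, and miR-367-3p has an unrelated seed, AUUGCAC.

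In GRCm38 the hairpins run Mir302b, Mir302c, Mir302a, Mir302d, Mir367 on the plus strand, from chr3:127545228-127545807, a stretch of 580 bases. They lie inside Larp7 (chr3:127536714-127553349), a gene on the minus strand that encodes an RNA-binding protein of the 7SK complex. Of its 4 annotated transcripts, 2 span the cluster and 0 have an exon that overlaps it, so the hairpins are intronic to Larp7 and antisense to it.

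Deposited values are reads per miRNA multiplied by a factor for each library, and their column totals ran from 46965.1 to 830401.5. Whole reads could be recovered and ran from 56377 to 1060306 per library, with D3 on day 0 the shallowest group (56377 to 129486). Values are therefore given on 3 scales: the deposited scale, the share of the miRNA signal (per 1000000 of the column total), and a relative scale in which each library was divided by its median-of-ratios factor over the 319 miRNAs above 0 in every library. The share also depends on the 5p arms of miR-10a and miR-10b, 2 miRNAs of the Hox gene clusters. Together these made up 0.578 to 0.660% of the signal in B8 on day 0, 41.9 to 47.0% in B8 on day 7, 0.0807 to 0.160% in D3 on day 0, 63.3 to 67.0% in D3 on day 7 and 11.6 to 14% in D3 on day 21. The miR-290 cluster, the defining marker of ESCs, took 256313 to 287034 per 1000000 in B8 and 198414 to 249617 in D3 on day 0. It took 59602 to 106296 in B8 and 6597 to 6768 in D3 on day 7, and 10477 to 12299 in D3 on day 21.

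The 3p arms of miR-302d, miR-302a and miR-302b carried nearly all of the cluster's signal. As a share of the miRNA signal they had a single pattern: present in both ESC lines, low on day 7, and back at or above the ESC level in D3 on day 21. The mean deposited values of D3 were not lower on day 7 than on day 0. Summed over the miR-302 3p members, the share of the miRNA signal was 1709 ± 115 per 1000000 (SD, n = 3) in B8 on day 0 and 156 ± 56.8 (n = 3) on day 7. In D3 it was 1629 ± 105 (n = 3) on day 0, 216 ± 42.5 (n = 2) on day 7 and 2446 ± 130 (n = 3) on day 21. The D3 groups did not overlap, and the lowest day 21 library (2301) stood above the highest library of either line on day 0 (1799). In bulk samples, fewer cells of a type and less RNA per cell cannot be told apart.

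miR-302d-3p was the most abundant member in all 14 libraries. Its share was 992, 1102 and 1026 per 1000000 in B8 on day 0, 132, 121 and 70.5 in B8 on day 7, 947, 1050 and 922 in D3 on day 0, 105 and 132 in D3 on day 7, and 1367, 1470 and 1572 in D3 on day 21. The day 0 libraries of both lines overlapped, as did the day 7 libraries, and the day 21 libraries were higher than all others. By group mean it ranked 91 of 1033 rows on day 0 in each line, 198 and 168 on day 7 in B8 and D3, and 76 in D3 on day 21.

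miR-302a-3p followed at less than the level of miR-302d-3p in each library. It stood at 381, 436 and 462 per 1000000 in B8 on day 0, and at 46.7, 19.5 and 21.2 on day 7. In D3 it stood at 502, 440 and 355 on day 0, 32.1 and 56.5 on day 7, and 534, 537 and 562 on day 21. The 3 libraries on day 21 were close together and just above the highest on day 0.

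miR-302b-3p was below both on day 0. It was at 207, 210 and 311 per 1000000 in B8 on day 0 and at 34.0, 15.6 and 7.05 on day 7, the last being 1 read. In D3 it was at 148, 255 and 266 on day 0, 47.2 and 57.5 on day 7, and 395, 470 and 414 on day 21. Its day 7 libraries in D3 lay above all 3 of B8, and its day 21 libraries above every library on day 0.

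**Figure D1:**
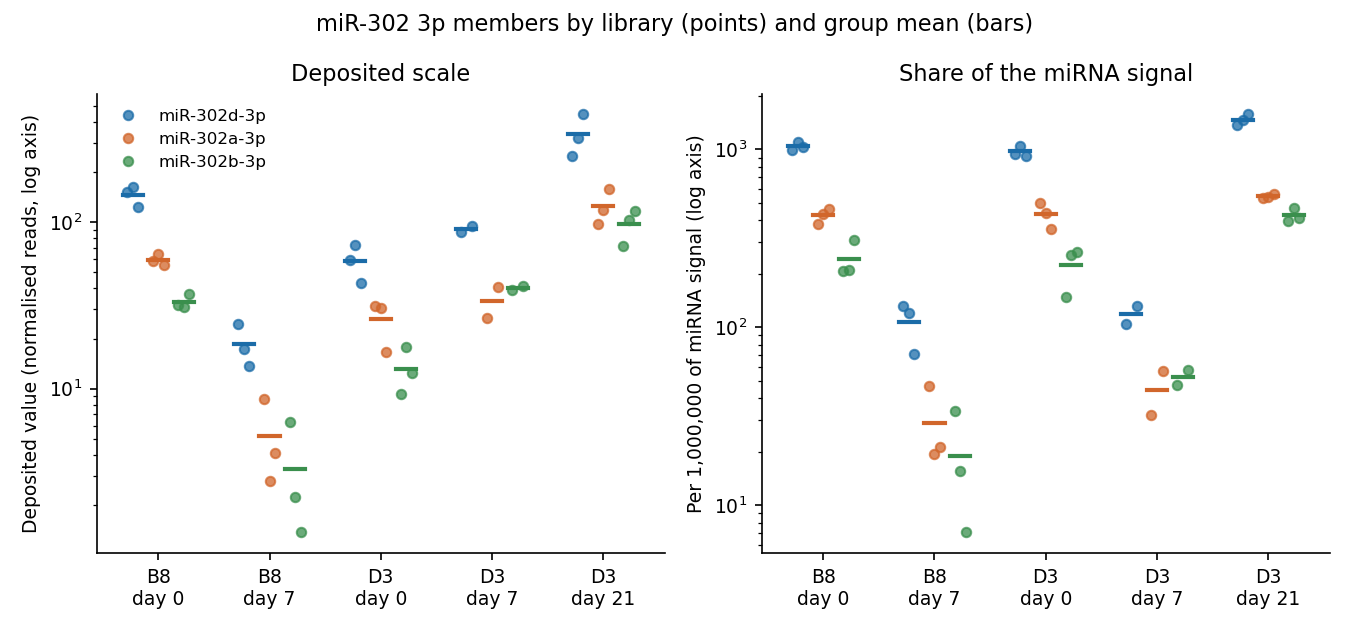
Level of the 3 main miR-302 3p members in each library (points) with the group mean (bars), as deposited values on the left and as a share per 1000000 of the miRNA signal on the right, both on log axes. On the right, all 3 members are low on day 7 in both lines and highest in D3 on day 21. On the left, the D3 group means on day 7 are not below those on day 0, though the miR-302a-3p libraries overlap.

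From ESCs to embryoid bodies in B8, the main members fell on every scale. On the deposited scale, limma called 0 members higher and 6 lower of the 7 tested (adjusted p under 0.05), where 28.0% of all miRNAs tested were called lower and 21.9% higher. The median of the 7 was -2.75 on the log2 scale, or -2.18 with members at 0 set to the bound that a floor of 3 reads allows, against -0.21 over all miRNAs tested. Fewer reads lie behind the day 7 values: the 3 main members had 1 to 31 reads in each B8 library. The other members called were sparser. From day 0 to day 7 the most reads in a B8 library went from 6 to 0 for miR-302a-5p, 5 to 2 for miR-302d-5p and 5 to 1 for miR-367-3p. For miR-302a-5p the floor allows a fall of only 1.05-fold or more on the deposited scale. The miR-302d-5p call was lost in edgeR (adjusted p = 0.0669).

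For miR-302d-3p the deposited values in B8 were 152, 163 and 123 on day 0 and 24.3, 17.3 and 13.7 on day 7. It fell by 2.98 ± 0.28 (SE) on the log2(value + 0.48) scale, limma adjusted p = 2.56e-09. miR-302a-3p fell by 3.53 ± 0.35 (adjusted p = 7.01e-09) and miR-302b-3p fell by 3.38 ± 0.38 (adjusted p = 6.61e-08) in the same limma fit. The 3 libraries on day 7 were below the 3 on day 0 for each of them. The relative scale gave changes of -2.76, -3.33 and -3.19 in that order, with 6 of 7 members lower and 0 higher where 25.9% of all miRNAs were lower and 26.9% higher.

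In D3, the direction of the change from day 0 to day 7 depended on the scale. The deposited values of miR-302d-3p were 59.5, 73.3 and 43.3 on day 0 and 86.9 and 95.2 on day 7. Both day 7 libraries were above all 3 on day 0, and the difference of 0.66 ± 0.31 (log2, SE) did not pass in limma (adjusted p = 0.0577). It passed when D3 day 0 replicate 2 was left out (adjusted p = 0.0279) and with a pseudocount of 10 per 1000000 (0.0496).

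On the deposited scale 1 member rose and 1 fell. miR-302b-3p rose by 1.62 ± 0.43 on the log2 scale (limma adjusted p = 0.00149), from 9.32, 17.8 and 12.5 to 39.2 and 41.5. miR-302d-5p fell from 11, 4 and 4 reads to 0 reads in both libraries, at least 1.66-fold. On that scale 70.4% of all miRNAs were called higher and 6.91% lower in D3, and the median of all miRNAs was 2.25, against 0.16 for the 7 members.

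On the relative scale, where the median of all miRNAs was 0.27, 6 of the 7 members fell and 0 rose, beside 27.1% of all miRNAs lower and 36.1% higher. miR-302d-3p fell by 1.62 ± 0.22 (limma adjusted p = 4.95e-06) and miR-302a-3p fell by 1.88 ± 0.32 (adjusted p = 7.31e-05). miR-302b-3p was the exception, at -0.63 ± 0.40 (limma adjusted p = 0.194). The remaining members called lower, miR-302a-5p, miR-302c-5p, miR-302d-5p and miR-367-3p, had at most 11 reads in any of these libraries. The miR-367-3p call, from 3 reads in each day 0 library and 2 and 4 on day 7, was lost without D3 day 0 replicate 3 (limma adjusted p = 0.0936). With column totals made equal outside miR-10a and miR-10b, miR-302d-3p still fell by 1.51 (limma adjusted p = 2.16e-05) and 6 members were lower. edgeR on the recovered reads called 7 of 7 lower and 0 higher, where it called 30.7% of all miRNAs lower and 32.1% higher, and miR-302b-3p was then at -0.85 (adjusted p = 0.0184).

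The main 3p members rose from day 7 to day 21 in D3 on the deposited and relative scales, which on the relative scale followed a fall of miR-302d-3p and miR-302a-3p and on the deposited scale did not. Of 7 members, 5 rose and 0 fell on the deposited scale, on which 8.06% of all miRNAs were called higher and 31.5% lower. On the relative scale 5 also rose and 0 fell, beside 16.5% higher and 10.6% lower among all miRNAs. The median of the 7 members was 1.85 deposited (1.23 with members at 0 at their bound) against -0.60 for all miRNAs, and 2.07 relative (1.94 at the bound) against 0.01.

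The deposited values of miR-302d-3p were 86.9 and 95.2 on day 7 and 248, 322 and 444 on day 21, the latter from 748, 1092 and 1117 reads. The groups did not overlap. It rose by 1.85 ± 0.31 on the deposited log2 scale (limma adjusted p = 5.59e-05) and by 2.57 ± 0.22 on the relative scale (adjusted p = 1.77e-07).

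miR-302a-3p rose from 26.6 and 40.8 to 97.0, 118 and 159, by 1.87 ± 0.39 deposited (limma adjusted p = 0.000598) and 2.58 ± 0.32 relative (adjusted p = 1.34e-05). miR-302b-3p rose from 39.2 and 41.5 to 71.7, 103 and 117, the least of the 3, by 1.23 ± 0.43 deposited (adjusted p = 0.0248) and 1.94 ± 0.40 relative (adjusted p = 0.00169). The deposited call for miR-302b-3p was lost without D3 day 21 replicate 2 or 3 or D3 day 7 replicate 2 or 3 (limma adjusted p from 0.0689 to 0.127), and also with no filter (0.0563) or a pseudocount of 0.2 per 1000000 (0.0793). Its relative call held without each library in turn (0.00404 to 0.0243).

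The 5p arms of miR-302a and miR-302d were also called higher on both scales, from very few reads: 1 in each day 7 library for miR-302a-5p and 0 in each for miR-302d-5p. The miR-302a-5p call was lost without D3 day 7 replicate 2 or 3 or D3 day 21 replicate 2 or 3 (limma adjusted p from 0.0816 to 0.0957 deposited and from 0.0764 to 0.104 relative) and with a pseudocount of 0.2 per 1000000 (0.0804). The relative call of miR-302d-5p was lost without D3 day 7 replicate 2 or 3 (0.0527 and 0.0524).

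Other cell type markers moved between the same libraries. Beside the counts below, 8.06% of all miRNAs tested were called higher and 31.5% lower on the deposited scale. On the relative scale these were 16.5% and 10.6%. Of the muscle list (13 rows, 4 tested), 4 rose on both scales. Its summed share went from between 22.6 and 32.7 per 1000000 on day 7 to between 1297 and 3518 on day 21. In every D3 library on day 0, 9 of its rows were at 0. The summed share of this list was far lower in each other group than in D3 on day 21. The filter on the mean over all libraries therefore favoured muscle rows that were high on day 21. That all 4 tested rows rose was thus largely set by the filter, while the summed share covers the whole list. Of the mesenchyme and smooth muscle list (11 rows, 11 tested), 2 rose and 1 fell on the deposited scale and 6 rose and 0 fell on the relative scale, and its sum went from 10198 to 13826 up to 55660 to 70765. The epithelial list (10 tested) had 1 higher deposited and 5 relative, the endoderm list (6 tested) 2 and 3. Rows of these lists called lower are not given here. The neural list (11 tested) had 8 lower deposited and 6 relative. The let-7 family (15 tested), which is known to rise as pluripotency ends, had 8 higher and 2 lower deposited and 10 and 1 relative, with a sum of 22232 to 25211 on day 7 and 113676 to 130694 on day 21. The miR-17 to miR-92 list (25 tested) had 19 lower deposited and 10 relative, the blood and endothelial list (7 tested) 2 higher and 2 lower deposited and 2 and 0 relative. Of the miR-290 cluster (13 tested), 10 were lower deposited and 2 relative, with 0 higher on both. Of 4 entries that resemble rRNA or tRNA fragments, 3 were lower on both scales and 1 was higher on the relative one. The part of these cell types in the rise of the cluster was not tested.

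Compared with D3 ESCs, the main members were called higher in the outgrowths on day 21 on the deposited and relative scales. The deposited values gave 4 members higher and 0 lower, beside 65.3% of all miRNAs higher and 10.2% lower, and the median of all miRNAs was 1.69. The members' share of calls was thus near the background on that scale. The 4 calls there included miR-367-3p, with 3 reads in each day 0 library (limma adjusted p = 0.0301). Its call was lost in edgeR (adjusted p = 0.942), with no filter (limma, 0.0550) and with a pseudocount of 0.2 per 1000000 (0.194). It was also lost without D3 day 0 replicate 1 or 2 or D3 day 21 replicate 2 or 3 (limma adjusted p from 0.0530 to 0.115). The comparison shares the day 0 samples with that of day 7 and the day 21 samples with that from day 7 to day 21. On the relative scale 3 were higher and 1 lower, beside 38.2% and 25.5% of all miRNAs, so the share called higher was near the background there too. There miR-302d-3p was higher by 0.95 ± 0.19 (limma adjusted p = 0.000377), miR-302b-3p by 1.32 ± 0.36 (adjusted p = 0.00388) and miR-302a-3p by 0.70 ± 0.29 (adjusted p = 0.0440), the median of all miRNAs being 0.41. The miR-302a-3p call was lost without D3 day 0 replicate 2 or 3 or without any of the 3 day 21 libraries (adjusted p from 0.0618 to 0.140). It was also lost with equal column totals (0.34, limma adjusted p = 0.350) and with totals made equal without miR-10a and miR-10b (0.54, adjusted p = 0.116).

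The member that was lower on the relative scale was miR-302c-5p, which had 2, 2 and 1 reads on day 0 and 0, 0 and 1 on day 21 although the libraries on day 21 were deeper. The median over the 7 members was 1.30 deposited and -0.05 relative.

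**Figure D2:**
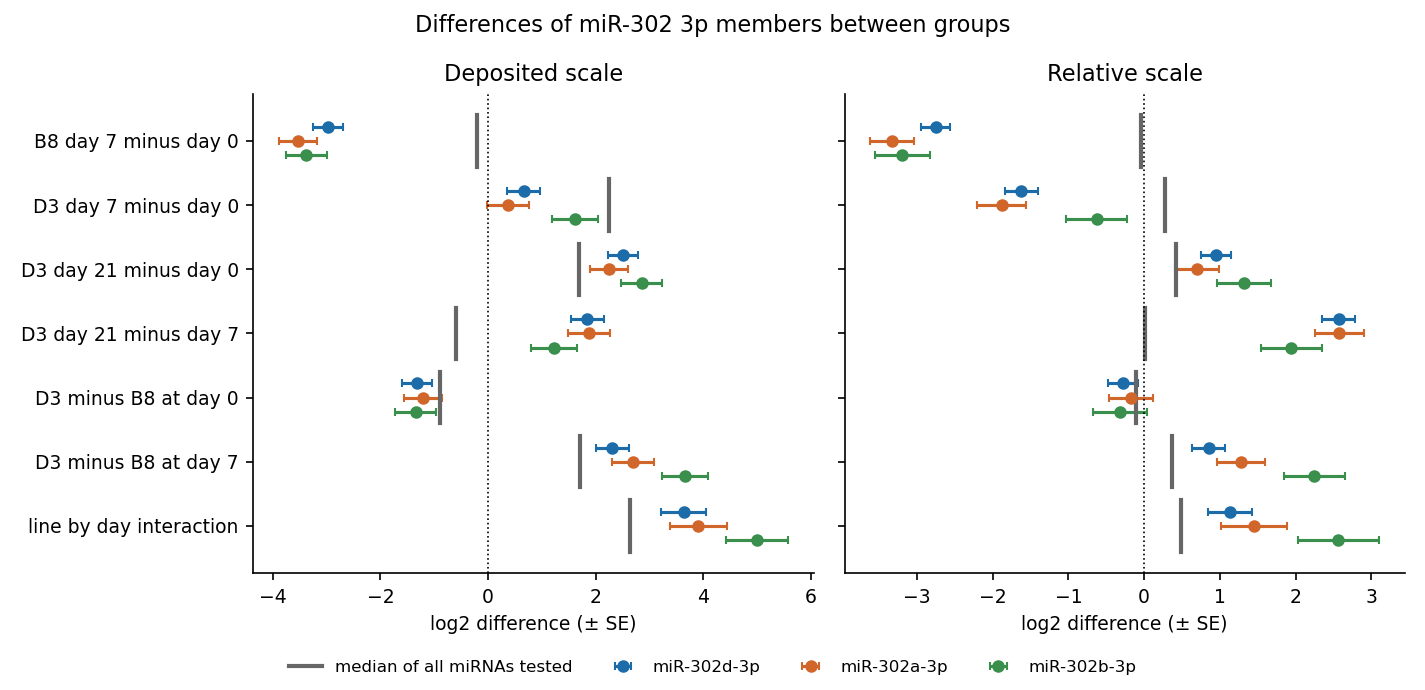
Log2 differences of the 3 main miR-302 3p members between groups with their standard errors (limma), on the deposited scale (left) and the relative scale (right); grey bars mark the median of all miRNAs tested. The change from day 7 to day 21 in D3 lies to the right of the grey bar on both sides, while the change from day 0 to day 7 in D3 changes sign between them.

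The ESC lines overlapped in their shares of the 3 main members on day 0. On the deposited scale 3 of 7 members were lower in D3 than in B8 on day 0 and 0 higher, beside 46.1% of all miRNAs lower and 0.960% higher. On the relative scale limma called 0 in either direction, with 0 in either direction also at an unadjusted p under 0.05, beside 15.9% of all miRNAs lower and 7.68% higher. edgeR called 0, with 1 higher and 0 lower unadjusted, where 15.4% of all miRNAs were lower and 7.49% higher.

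On the relative scale the differences were -0.28 ± 0.19 for miR-302d-3p, -0.17 ± 0.29 for miR-302a-3p and -0.32 ± 0.36 for miR-302b-3p (log2, SE), with limma adjusted p of 0.344, 0.725 and 0.577. These values do not show that the lines were alike, only that differences of this size lay within the spread. The deposited differences were -1.33 ± 0.28, -1.21 ± 0.35 and -1.35 ± 0.38, all 3 called (adjusted p = 0.000350, 0.00594 and 0.00523). The median of all miRNAs was then -0.90, and the call for miR-302a-3p was lost without D3 day 0 replicate 3 (adjusted p = 0.0519).

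At day 7 the main members were higher in D3 than in B8 on the deposited and relative scales. Of 7 members, 4 were called higher on the deposited scale and 3 on the relative scale, beside 66.0% and 24.8% of all miRNAs. On either scale 0 were lower, beside 9.21% and 16.7%. The deposited share called higher was thus not above the background. The 4 deposited calls included miR-367-3p, from 2 and 4 reads in D3 and 1, 0 and 1 in B8 (limma adjusted p = 0.0467). That call was lost in edgeR (adjusted p = 0.848). In limma it was lost with the compared groups alone (0.134), with no filter (0.0731) and with either other pseudocount (0.0614 and 0.0825). It was also lost with a replicate block (0.0613), without B8 day 7 replicate 2 (0.220) and on the relative scale (0.696). The relative difference was 2.25 ± 0.40 for miR-302b-3p (limma adjusted p = 0.000252), 1.28 ± 0.32 for miR-302a-3p (adjusted p = 0.00424) and 0.85 ± 0.22 for miR-302d-3p (adjusted p = 0.00460), with a median of 0.37 for all miRNAs. Without D3 day 7 replicate 3 the calls for miR-302a-3p and miR-302d-3p were lost (adjusted p = 0.0874 and 0.0532), which leaves 1 member. As shares of the signal, miR-302a-3p and miR-302d-3p overlapped between the lines and miR-302b-3p did not, and with equal column totals 1 member was called higher and 0 lower, beside 7.87% and 23.4% of all miRNAs.

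The change from day 0 to day 7 differed between the lines for 3 of 7 members by a test of the difference itself. On the deposited scale 3 members of 7 had a higher change in D3 and 0 a lower one, beside 71.8% and 2.50% of all miRNAs. The deposited share called higher was thus below the background. On the relative scale the counts were 3 and 0, beside 20.7% and 12.5%. The relative difference in change was 2.57 ± 0.54 for miR-302b-3p (limma adjusted p = 0.00122), 1.45 ± 0.43 for miR-302a-3p (adjusted p = 0.0136) and 1.13 ± 0.29 for miR-302d-3p (adjusted p = 0.00565). Without D3 day 7 replicate 3, miR-302a-3p no longer passed (adjusted p = 0.101). With equal column totals 1 member had a higher change and 0 a lower one, beside 9.98% and 20.5% of all miRNAs. edgeR gave 2 and 0, beside 15.7% and 14.8%.

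The counts of members called were also taken with equal column totals and in edgeR on the recovered reads. In B8 from day 0 to day 7, 7 of 7 members fell with equal totals (35.7% of all miRNAs lower, 18.2% higher) and 4 of 7 in edgeR (23.4% lower, 27.4% higher), with 0 higher in both. In D3 from day 0 to day 7, 7 fell and 0 rose with equal totals (44.7% lower, 21.1% higher). From day 7 to day 21 in D3, 6 of 7 rose and 0 fell with equal totals (38.0% higher, 2.11% lower) and likewise in edgeR (26.9% higher, 14.2% lower). Between days 0 and 21, 2 were higher and 2 lower with equal totals (34.0% and 30.3%) and 3 and 2 in edgeR (37.8% and 27.3%). Between the lines, 0 differed on day 0 with equal totals, with 0 in either direction also at an unadjusted p under 0.05 (9.21% higher, 12.5% lower). At day 7, 2 were higher in D3 and 0 lower in edgeR (19.8% and 21.7%).

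Shares of reads and ratios within a library show how the members differed from each other. The shares of reads do not depend on how the library was scaled. The log2 ratios depend on it only through the 0.48 added to each deposited value, which weighs most where reads are few. miR-302d-3p made up 60.9 ± 3.39% of the miR-302 3p reads in B8 on day 0 (SD, n = 3), 70.3 ± 7.81% in B8 on day 7, 59.7 ± 0.45% in D3 on day 0, 55.0 ± 1.92% in D3 on day 7 (n = 2) and 60.0 ± 1.36% in D3 on day 21. miR-302b-3p made up 14.1 ± 2.77, 11 ± 4.52, 13.7 ± 4.06, 24.4 ± 1.41 and 17.4 ± 1.36% in the same order. Its largest part was thus in the D3 embryoid bodies, where it was as abundant as miR-302a-3p (50 and 58 reads against 34 and 57).

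In log2 units the ratio of miR-302b-3p to miR-302d-3p was -1.16 ± 0.03 in D3 on day 7 (n = 2), against -2.13 ± 0.44 on day 0, -1.78 ± 0.14 on day 21 and -2.51 ± 0.56 in B8 on day 7 (n = 3 each). The 2 libraries did not overlap any of these groups. With 2 against 3 libraries an exact permutation test (2-sided) cannot go below p = 0.2, which each comparison reached. Over all 42 ratios tested in this way, 23 separated the groups and 0 passed at either an unadjusted or an adjusted p under 0.05, the smallest p that 3 against 3 allows being 0.1.

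**Figure D3:**
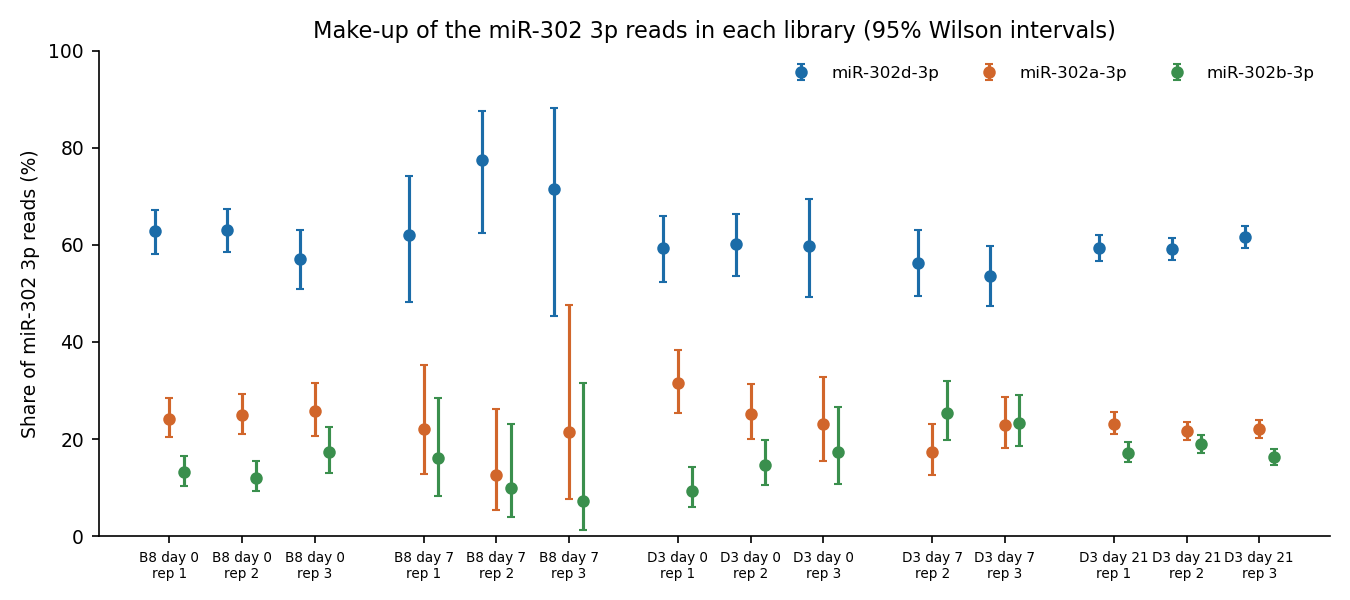
Share of each main member among the miR-302 3p reads of each library, in percent, with 95% Wilson intervals that cover counting error only. miR-302d-3p is the largest in every library, and miR-302b-3p stands highest in the 2 D3 libraries on day 7.

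miR-302c-3p was scarcely found. It had 0 reads in the 3 libraries of B8 on day 0, the 3 of B8 on day 7 and the 3 of D3 on day 0, 2 and 0 reads in D3 on day 7, and 3, 7 and 3 in D3 on day 21. It did not reach the level needed for testing (a mean of 5 per 1000000) and no fold is given. At the depth of the ESC libraries a count of 0 allows up to 3 reads.

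Its partner on the other arm, miR-302c-5p, was as rare: 3, 0 and 2 reads in B8 on day 0, 2, 2 and 1 in D3 on day 0, and 0 or 1 in all other libraries. In ESCs all 5 reads of each line from the Mir302c hairpin came from the 5p arm, and in D3 on day 21 it was 1 of 14. The ratio of these arms was not tested, given so few reads.

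The other 5p arms were minor products. Of the reads of Mir302d, 1.80, 1.77 and 2.74% came from the 5p arm in B8 on day 0, and 8.73, 2.86 and 7.14% in D3 on day 0. In D3 on day 7 0 reads came from it in both libraries (95% Wilson upper bounds of 3.35 and 2.81%), and on day 21 it was 2.09, 0.997 and 0.623%. So while miR-302d-3p came back above the ESC share, its 5p arm had 18 ± 10.1 per 1000000 (SD, n = 3) on day 21 and 64.1 ± 30.4 on day 0, and these libraries overlapped on the deposited and relative scales but not as shares.

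The log2 ratio of the Mir302d arms (5p to 3p, with 0.48 added to each deposited value) was 2.45 lower in D3 on day 21 than on day 0, without overlap. An exact permutation test gave p = 0.1, the smallest possible, with an adjusted p of 0.311. For Mir302a the 5p arm gave 5.41, 5.17 and 3.03% of reads in B8 on day 0, 3.17, 10.9 and 16.7% in D3 on day 0, 2.86 and 1.72% on day 7 and 1.68, 4.55 and 4.09% on day 21. Those D3 groups on day 0 and day 21 overlapped.

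miR-367-3p, whose seed is unlike that of the miR-302 arms, was rare too. It had 5, 5 and 2 reads in B8 on day 0, 1, 0 and 1 in B8 on day 7, 3 in each D3 library on day 0, 2 and 4 in D3 on day 7, and 13, 24 and 12 in D3 on day 21. As a share it was 17.5 ± 2.75, 3.77 ± 3.55, 33.7 ± 16.9, 2.93 ± 1.47 and 24.3 ± 7.72 per 1000000 in that order. As a share it was thus lowest on day 7 in both lines, with day 21 overlapping day 0 in D3. Its deposited values in D3 were not lower on day 7, at 2.21 ± 0.92 (n = 2) against 1.89 ± 0.53 on day 0 (n = 3), and these counts lie near the floor of 3 reads.

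The fall of miR-367-3p in B8 passed on both scales (limma adjusted p = 0.0224 deposited and 0.0408 relative), but rested on few reads. The deposited call was lost in edgeR (0.0815), with the compared groups alone (0.0830), with no filter (0.0501), with totals made equal without miR-10a and miR-10b (0.0702), and without B8 day 0 replicate 1 (0.0653), B8 day 0 replicate 2 (0.0678) or B8 day 7 replicate 2 (0.141). The relative call was lost without any of these 3 libraries or B8 day 7 replicate 1 (adjusted p from 0.0519 to 0.199). From day 7 to day 21 in D3 the difference of 1.14 ± 0.60 deposited and 1.59 ± 0.61 relative (log2, SE) did not pass in limma (adjusted p = 0.138 and 0.0643). It passed in edgeR at 2.16 (adjusted p = 0.00379).

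The seeds let the cluster be set beside miRNAs that can bind the same sites. Of the rows with a sequence, 3 others share AAGUGCU with miR-302b-3p and miR-302d-3p, all from the miR-290 cluster. No other row with a sequence had the seeds of miR-302c-3p or of the 5p arms. Their sequences show how far the likeness runs beyond the seed.
miR-295-3p: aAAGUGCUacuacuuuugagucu
miR-294-3p: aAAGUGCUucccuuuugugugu
miR-291a-3p: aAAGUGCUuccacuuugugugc

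Together these 3 relatives far exceeded miR-302 in ESCs and, as shares, stayed far below their ESC level on day 21. Their summed share was 113849 ± 12219 per 1000000 in B8 on day 0 and 21055 ± 10676 on day 7 (SD, n = 3). In D3 it was 94675 ± 11289 on day 0 (n = 3), 2917 ± 213.8 on day 7 (n = 2) and 3875 ± 214.4 on day 21 (n = 3). From day 7 to day 21, limma called 0 of the 3 higher and 2 lower on the deposited scale and 0 in either direction on the relative scale. Among all miRNAs tested, 8.06% were called higher and 31.5% lower deposited, and 16.5% and 10.6% relative.

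The miR-302 3p sum also holds miR-302a-3p, whose seed was not compared, and the rare miR-302c-3p, whose seed is shifted. This sum was 1.27, 1.51 and 1.79% of the relatives' sum in B8 on day 0, and 0.776, 0.576 and 1.13% on day 7. In D3 it was 1.51, 1.83 and 1.86% on day 0, 6.06 and 8.89% on day 7, and 61.4, 60.3 and 68.0% on day 21. The ESC lines overlapped, B8 moved down and D3 moved up, and on day 21 the 2 families stood within the same order of size.

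On the log2 scale the ratio was 5.19 higher in D3 on day 21 than on day 0, 3.10 higher than on day 7, and 3.18 higher in D3 than in B8 on day 7. These groups did not overlap. The exact permutation tests gave p = 0.1 for the first (3 against 3) and 0.2 for the others (3 against 2), the smallest these sizes allow, and adjusted p = 0.311. Since the ratio is taken within a library, the scaling factor enters it only through the 0.48 added to each sum.

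Among the 3, miR-295-3p held most of the signal, with 110340 ± 12042 per 1000000 in B8 ESCs and 92228 ± 10645 in D3 ESCs (SD, n = 3). It stood at 2778 ± 213.2 in D3 on day 7 (n = 2) and 3623 ± 205.03 on day 21 (n = 3). miR-294-3p and miR-291a-3p ended in D3 on day 21 at 204.7 ± 3.53 and 46.7 ± 16.8, below miR-302d-3p at 1470 ± 103. From day 0 to day 21 in D3 all 3 relatives were called lower on both scales. Of all miRNAs tested, 10.2% were lower deposited and 25.5% relative.

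**Figure D4:**
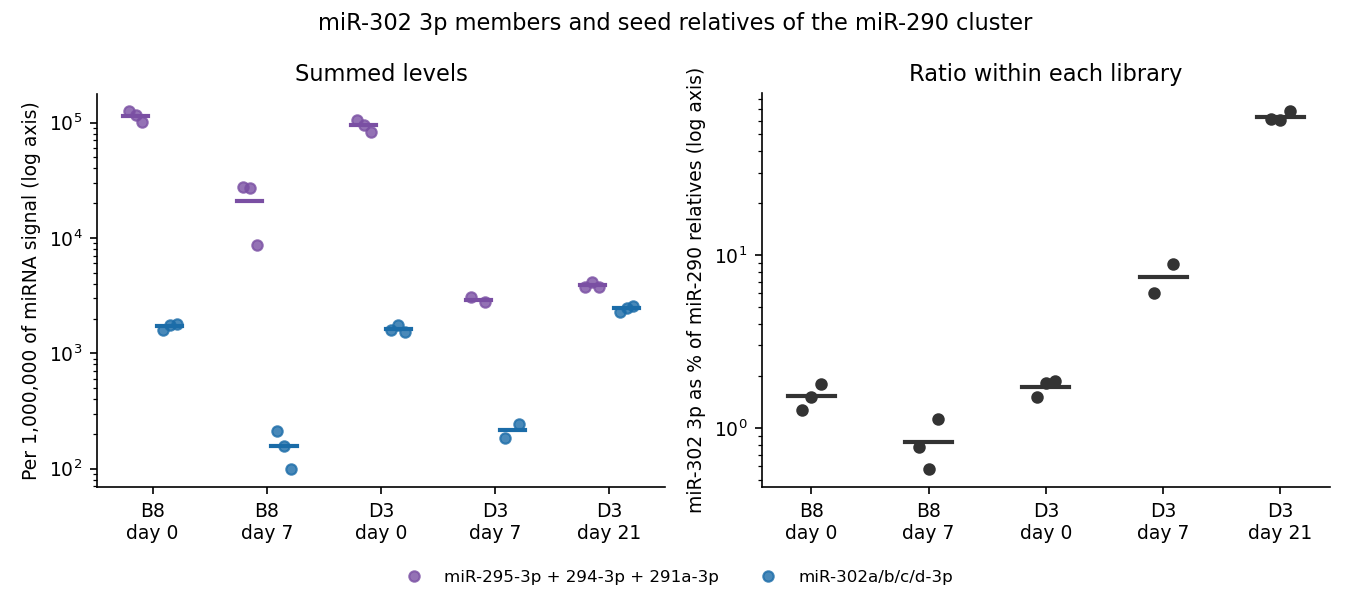
Left, summed share per 1000000 of the miRNA signal of the miR-302 3p members and of the 3 miR-290 cluster miRNAs with the seed AAGUGCU, by library (points) and group mean (bars), log axis. Right, the first sum as a percentage of the second, log axis: it lies between 0.576 and 1.86% in ESCs and B8 embryoid bodies and between 60.3 and 68.0% in D3 on day 21.

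miR-367-3p shares its seed with 5 rows, miR-92b-3p, miR-25-3p, miR-92a-3p, miR-363-3p and miR-32-5p, which come from the miR-17 to miR-92 group of proliferation-associated clusters and others. The 3 most abundant are shown.
miR-92b-3p: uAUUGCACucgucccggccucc
miR-25-3p: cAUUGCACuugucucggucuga
miR-92a-3p: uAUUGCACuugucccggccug

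All 3 outnumbered miR-367-3p by far in every group. miR-92a-3p went from 20764 ± 2693 per 1000000 in D3 on day 0 (n = 3) to 2674 ± 536 on day 7 (n = 2) and 2884 ± 659 on day 21 (n = 3). miR-92b-3p stood at 19233 ± 3639, 19488 ± 101 and 21584 ± 4676, and miR-25-3p at 15791 ± 1936, 7921 ± 1214 and 11155 ± 782, in the same order. Of these 5 relatives, 0 rose and 4 fell from day 7 to day 21 on both scales. Among all miRNAs tested, 8.06% were called higher and 31.5% lower deposited, and 16.5% and 10.6% relative. miR-367-3p had more reads in each library on day 21 than on day 7. Its difference did not pass in limma (adjusted p = 0.138 deposited and 0.0643 relative) but passed in edgeR (adjusted p = 0.00379).

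The rise and fall of the 3 main members was shared most closely by miRNAs outside these seeds. Over the 14 libraries, the mean relative log2 level of the 3 correlated best with miR-27a-3p (Pearson r = 0.93), miR-136-5p (0.93), miR-24-2-5p (0.90), miR-299a-3p (0.88) and miR-449a-5p (0.88), the top 5 of 514. The libraries fall into 5 groups and share their scaling factors, so these values describe a pattern only. miR-295-3p had r = 0.01 and ranked 247.

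As a share, miR-136-5p showed the same low and return, with 368 ± 32.2 per 1000000 in B8 on day 0 and 10.6 ± 11.8 on day 7 (SD, n = 3). In D3 it was at 471 ± 63.7 on day 0, 88.5 ± 3.82 on day 7 (n = 2) and 785 ± 56.9 on day 21. miR-27a-3p was at 1159 ± 42.5, 121.6 ± 14.6 and 815 ± 67.7 in D3 on day 0, 7 and 21. Its day 21 level lay below that of day 0, unlike that of the cluster.

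Within the cluster, miR-302a-3p and miR-302d-3p were the most alike over the 14 libraries (Pearson r = 0.98), followed by miR-302b-3p with each of them (0.94 with miR-302d-3p and 0.93 with miR-302a-3p). miR-367-3p was less like them (0.71 to 0.82), and miR-302c-5p, which never passed 3 reads in a library, least (0.30 to 0.41).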

How the data were processed

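The 14 libraries of mouse ESCs come from a single table of mature miRNAs. The unit, as the authors deposited it, is a signal: reads of each miRNA times a library factor, with TMM named by the table's title. CASAVA, FastQC, Bowtie, Partek and mm10 are named in the submitters' processing notes, and cutadapt and a length step per the file headers; rules for multi-mapping reads are not given in the sources used here. Up to 1000 reads, 100% of values were whole multiples of the value of 1 read to within 0.01, which recovered reads. Members and lists were chosen with earlier results of these data known.

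A filter on the mean (5 per 1000000 of the column total) kept 521 of 1033 rows, 7 of the 8 members among them. A limma model (3.58.1, R 4.3.3, trended prior) of 5 group means with 9 residual degrees of freedom was fitted to log2(value + 0.48), where 0.48 is 2 per 1000000 of the mean column total. Tests were 2-sided, and p-values were Benjamini-Hochberg adjusted over the 521 with a threshold of 0.05. Fold changes on this scale understate those of low miRNAs. All 14 libraries entered each fit. Alternatives were the relative scale, equal totals, totals made equal with miR-10a and miR-10b set aside, edgeR (4.0.16, quasi-likelihood, TMM) on the recovered reads, pseudocounts of 0.2 and 10 per 1000000, no filter or one of 50 per 1000000, the compared groups alone, a replicate block and leaving out each library. Between days 0 and 7, edgeR called 143 miRNAs higher and 122 lower in B8, and 167 and 160 in D3; between days 7 and 21 in D3 it called 140 and 74. Ratios were compared by exact permutation tests in SciPy 1.17.1 on log2 ratios of deposited values, with 0.48 added to each term. An offset of 0.5 reads was an alternative. Named miRNAs were all members, the 3 most abundant sharing each seed, and the 5 most like the main members. PCR copies are not separate molecules, so floors of 3 reads and 95% intervals hold for counting error alone. The fit was also run on simulated reads scaled by their known library totals, so that run did not address the scaling of the libraries. Its outcome is not reported here.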

Additional observations from a re-analysis of the deposited data

Results flagged for a closer look

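The change from day 0 to day 7 differed between D3 and B8 by a test of the difference itself (limma interaction) for 3 members on both scales. Of all miRNAs tested, 71.8% had a higher change in D3 on the deposited scale and 20.7% on the relative scale. The 3 of 7 members were thus below the background on the deposited scale. On the deposited scale D3 minus B8 was 5.0016 for miR-302b-3p, 3.91 for miR-302a-3p and 3.64 for miR-302d-3p (log2), where the median of all miRNAs was 2.64. On the relative scale it was 2.57, 1.45 and 1.13, against a median of 0.49. miR-302b-3p was the only one of the 3 to pass with equal column totals as well.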

How the results depend on the processing

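Counts of members called moved mainly with the scaling of the libraries. For D3 day 7 against day 0 (1 higher, 1 lower), 0 were higher and 6 lower both on the relative scale and when miR-10a and miR-10b were set aside before equalising totals, and 0 and 7 with equal totals and in edgeR. There a pseudocount of 10 per 1000000 gave 2 higher, a filter of 50 per 1000000 left 0 lower, and leaving out 1 library gave 1 to 2 higher and 1 to 2 lower. For D3 day 21 against day 0 (4 higher, 0 lower), equal totals gave 2 higher and 2 lower, totals equal without miR-10a and miR-10b 2 and 1, edgeR 2 lower, and the relative scale and the compared groups alone 1 lower each. For D3 day 21 against day 7 (5 higher), the filter of 50 and the pseudocount of 0.2 per 1000000 gave 3, and leaving out 1 library 3 to 5. For B8 the filter of 50 left 3 of 6 lower; that filter keeps 3 members. For D3 against B8 at day 0 (3 lower), 0 were lower with equal totals, totals equal without miR-10a and miR-10b, the relative scale and edgeR. For D3 against B8 at day 7 (4 higher), edgeR gave 2 and equal totals 1, and for the difference in change (3 higher) equal totals gave 1. The cause of these moves was not tested.

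A replicate block gave 2 members lower in place of 1 for D3 day 7 against day 0 and changed no other count by over 1.5 times. Same-numbered libraries deviated together with correlations of only -0.09 to 0.11. These were not set beside those of differently numbered libraries, and the labels state no pairing, so whether the numbers pair libraries stays unknown. Leaving out libraries and the block on the relative scale were chosen after seeing the data.

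With the relative scale these log2 values changed sign from the deposited scale: for D3 day 7 against day 0 -1.88 (miR-302a-3p), -0.63 (miR-302b-3p), -1.62 (miR-302d-3p), -1.65 (miR-367-3p); for D3 day 21 against day 0 -0.72 (miR-302a-5p), -1.33 (miR-302d-5p), -0.054 (miR-367-3p); for D3 against B8 at day 0 0.76 (miR-302a-5p), 0.58 (miR-367-3p); for the difference in change between the lines -0.027 (miR-302a-5p), -0.55 (miR-302c-5p), -0.24 (miR-367-3p). With equal column totals these log2 values changed sign from the deposited scale: for D3 day 7 against day 0 -3.27 (miR-302a-3p), -2.01 (miR-302b-3p), -3.03 (miR-302d-3p), -2.79 (miR-367-3p); for D3 day 21 against day 0 -1.08 (miR-302a-5p), -1.72 (miR-302d-5p), -0.38 (miR-367-3p); for D3 against B8 at day 0 0.0095 (miR-302a-3p), 0.97 (miR-302a-5p), 0.79 (miR-367-3p); for D3 against B8 at day 7 -0.0061 (miR-367-3p); for the difference in change between the lines -0.40 (miR-302a-5p), -1.02 (miR-302c-5p), -0.79 (miR-367-3p). With totals equal without miR-10a and miR-10b these log2 values changed sign from the deposited scale: for D3 day 7 against day 0 -1.77 (miR-302a-3p), -0.51 (miR-302b-3p), -1.51 (miR-302d-3p), -1.62 (miR-367-3p); for D3 day 21 against day 0 -0.86 (miR-302a-5p), -1.48 (miR-302d-5p), -0.19 (miR-367-3p); for D3 against B8 at day 0 0.0021 (miR-302a-3p), 0.93 (miR-302a-5p), 0.74 (miR-367-3p); for the difference in change between the lines -0.048 (miR-302a-5p), -0.62 (miR-302c-5p), -0.31 (miR-367-3p). With edgeR these log2 values changed sign from the deposited scale: for D3 day 7 against day 0 -2.14 (miR-302a-3p), -0.85 (miR-302b-3p), -1.84 (miR-302d-3p), -2.09 (miR-367-3p); for D3 day 21 against day 0 -0.71 (miR-302a-5p), -1.50 (miR-302d-5p); for D3 against B8 at day 0 0.76 (miR-302a-5p), 0.46 (miR-367-3p); for the difference in change between the lines -0.16 (miR-367-3p). A pseudocount of 10 per 1000000 moved miR-302c-5p to -0.021 for D3 against B8 at day 0.

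Leaving out 1 library in turn changed the sign of sparse members only, with ranges on the deposited scale of -0.23 to 0.38 (miR-302d-5p, D3 day 21 against day 0), -1.11 to 0.29 (miR-302c-5p, D3 day 21 against day 7), -0.19 to 0.52 (miR-367-3p, D3 day 7 against day 0), -0.43 to 0.32 (miR-302a-5p, D3 against B8 at day 0), -0.58 to 0.52 (miR-302c-5p, D3 against B8 at day 0), -0.15 to 0.46 (miR-302d-5p, D3 against B8 at day 0), -0.15 to 1.28 (miR-302c-5p, the difference in change between the lines), and on the relative scale of -0.25 to 0.29 (miR-367-3p, D3 day 21 against day 0), -0.56 to 0.20 (miR-302c-5p, D3 day 21 against day 7), -0.26 to 0.82 (miR-367-3p, D3 against B8 at day 7), -0.58 to 0.34 (miR-302a-5p, the difference in change between the lines), -0.95 to 0.19 (miR-302c-5p, the difference in change between the lines), -0.84 to 0.23 (miR-367-3p, the difference in change between the lines). For miR-302c-5p, D3 against B8 at day 7, they did not change sign but ran from 0.0 to 1.40 deposited and 0.0 to 0.76 relative, 0.0 being where both groups were left with 0 reads. Depth limits the 5p arms, miR-302c-3p and miR-367-3p, which had few reads in most libraries.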
